A study of Mus musculus with 20 samples.

Results

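The lowest dose of a 7-day oral study of Nafion byproduct 2 was compared with the vehicle control in mouse liver. The compound, a perfluoroalkyl ether carrying a sulfonic acid, arises as a side product when a fluoropolymer is made. The comparison takes the 4 livers whose label gives a dose of 0.03 mg/kg and the 4 livers labelled 0 mg/kg, which is 8 of the 20 livers in the series, and describes all genes measured in them. Every liver came from its own male Balb-C mouse of 10 to 12 weeks that was gavaged once a day, in the afternoon, for 7 days. The other 12 livers came from mice given 0.3, 3 or 6 mg/kg per day, 4 at each dose. Control mice received vehicle alone, which the treatment protocol gives as deionized water although the titles of the control samples read DMSO, so the vehicle is not settled here. RNA was measured with TempO-Seq, in which pairs of detector oligonucleotides that lie side by side on a transcript are ligated and the ligated pairs are counted, so that a level belongs to 1 probe and not to a whole transcript. Levels are given as CPM, counts for every 1000000 of the scaled library, and are compared between livers for the same gene. Whole liver tissue was used, so fewer cells of a type and less RNA per cell cannot be told apart.

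Fluorinated alkyl acids are known in rodent liver as activators of nuclear receptors. PPARalpha switches on fatty acid oxidation in peroxisomes, mitochondria and, through the Cyp4a enzymes, at the omega carbon. CAR and PXR switch on cytochrome P450 enzymes, their electron donor Por, and the transferases that conjugate and the transporters that export foreign compounds. The livers of male rodents also carry a sex-specific set of genes driven by pulsed growth hormone, and a large part of the liver transcriptome follows the time of day and the time of the last meal.

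The library totals of the 2 groups overlapped, and the lowest was that of control replicate 2. Totals were 7123004 to 9890662 counts in controls and 9425085 to 9945290 at 0.03 mg/kg (exact permutation test, two-sided, p = 0.114, where 4 against 4 can go no lower than 0.0286). Log2 CPM values correlated at 0.969 to 0.978 among controls, at 0.969 to 0.986 among treated livers and at 0.955 to 0.986 between the groups. Hepatocyte markers defined the tissue in all 8, with a summed level of 38844 to 45913 CPM in controls and 35169 to 40204 CPM at 0.03 mg/kg, and Alb, the serum albumin gene, at 7019 to 11536 CPM. Control replicate 2 stood apart at the low end of expression. It had a count for 23418 probes, against 19110 to 19721 in the other controls and 18577 to 19954 in the treated livers, and its probes for olfactory and vomeronasal receptors, which liver does not use, summed to 1159 CPM against 46.0 to 89.4 CPM and 12.5 to 69.8 CPM. Between the groups this sum gave p = 0.0857 by the same exact permutation test.

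No gene met the study-wide threshold at 0.03 mg/kg. Of 14122 probes tested, 0 passed an adjusted p of 0.05 in edgeR's quasi-likelihood test (0% called), and the smallest adjusted p was 0.405, for Rgs3. On the same counts DESeq2 called 2 probes and limma-voom 0. An unadjusted p under 0.05 was found for 457 probes, where 706 would be found if p-values were uniform. The count changed with the libraries in the fit. These set the shared spread, the scaling and the filter, and the part of each was not tested. The count was 716 of 12937 probes in the 8 libraries alone. It was 1108 of 14271 in the fit without replicate 4 at 3 mg/kg and replicate 4 at 6 mg/kg. With 1 probe standing for each of 10101 genes, 329 genes had an unadjusted p under 0.05, which is 3.26% of them, 137 on the higher side (1.36%) and 192 on the lower side (1.9%). The median log2 fold change of all genes was -0.016, and the 5th to the 95th percentile ran from -0.49 to 0.44.

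For most genes the fit over all 20 libraries bounded the change between the 2 groups. The 95% interval of the log2 fold change lay within 2-fold in either direction for 7526 of 10101 genes (74.5%), and for 3381 of the 3695 genes with a mean of at least 20 CPM (91.5%). The median distance from the estimate to the end of its interval was 0.37 on the log2 scale at 100 CPM and over, 0.48 at 5 to 20 CPM and 1.09 under 1 CPM. A fold change of 2 or more was estimated for 206 genes but for only 7 of those with at least 20 CPM, 5 higher and 2 lower. The plot of fold change against level shows this narrowing.

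**Figure D1:**
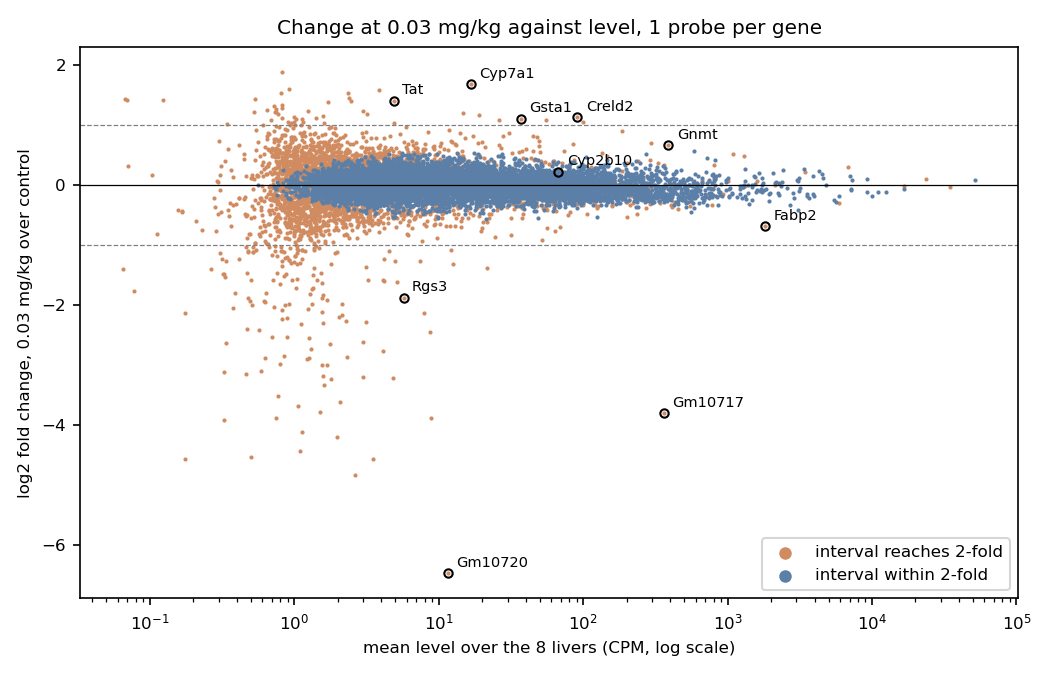
Log2 fold change at 0.03 mg/kg over control (vertical axis) against mean level over the 8 livers in CPM (horizontal axis, log scale), 1 point for each of 10101 genes, coloured by whether the 95% interval lies within 2-fold (7526 genes) or reaches it; dashed lines mark 2-fold. Most genes above 20 CPM sit close to 0, and Gm10717, Gm17535 and Gm10720 are among the lowest, at -3.80, -3.89 and -6.47.

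Rgs3, Gm10720 and Gnmt were called under an alternative analysis. Of these, Rgs3, a regulator that ends signalling through G protein-coupled receptors, was at 13.4, 7.46, 10.0 and 5.19 CPM in the 4 controls and at 3.44, 2.69, 2.55 and 1.09 CPM in the 4 treated livers. The groups did not overlap. Its log2 fold change was -1.88 (SE 0.35, n = 4 in each group), with an edgeR adjusted p of 0.405 and a DESeq2 adjusted p of 0.00207. Each treated library held 10 to 31 counts of Rgs3 and each control 40 to 107. The gene lies at chr4:62559847-62704001 on GRCm38, plus strand.

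Gnmt, the glycine N-methyltransferase that disposes of surplus methyl groups in hepatocytes, was at 294, 287, 335 and 289 CPM in controls and at 468, 446, 590 and 407 CPM at 0.03 mg/kg. Every treated liver was above every control. The log2 fold change was 0.66 (SE 0.31), with an edgeR adjusted p of 0.9996. In the fit without 2 libraries of higher doses that stood apart from their own groups, replicate 4 at 3 mg/kg and replicate 4 at 6 mg/kg, the estimate was 0.67 with an SE of 0.10 and an adjusted p of 0.0162. These 2 livers are in neither group of the comparison. They enter through the spread that all 20 libraries share, the scaling and the filter, which kept 14271 probes without them. Another, weaker probe for Gnmt, at a mean of 4.18 CPM, gave 0.18 (SE 0.26). At the other doses the main probe was at 342 ± 9.36 CPM (SD, n = 4) at 0.3, 489 ± 345 CPM at 3 and 697 ± 267 CPM at 6 mg/kg.

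Gm10720 belongs to a run of predicted genes at the start of the assembled chromosome 9. It was at 3.24, 87.1, 0.755 and 0.649 CPM in controls, and the treated livers held 0 to 5 counts, under the floor of 3 counts in 3 of the 4. DESeq2 gave it an adjusted p of 0.0306 and edgeR 0.9996, and its fitted log2 fold change of -6.47 was -2.60 without control replicate 2. Its neighbours Gm17535 (10.4, 42.2, 10.9 and 2.86 CPM in controls against 0.666, 0.995, 2.11 and 0.652 CPM) and Gm10717 (501, 1713, 408 and 91.1 CPM against 45.6, 35.8, 98.5 and 14.8 CPM) were likewise highest in control replicate 2. The log2 fold changes were -3.89 (SE 1.09) and -3.80 (SE 1.14), with edgeR adjusted p-values of 0.9996 each, and were -2.86 and -2.78 without control replicate 2. The 3 lie at chr9:3015654-3017210, chr9:3034599-3035805 and chr9:3025417-3033289 on GRCm38, so near each other that their probes may detect related sequence. Receptor genes silent in liver had counts in every library, 46.0 to 1159 CPM in controls and 12.5 to 69.8 CPM in treated livers. In each group the liver with the most of them, control replicate 2 and treated replicate 3, also had the most Gm10717. The part of this signal in these differences was not tested, and that of control replicate 2 only by leaving it out. The other 3 controls still lay above the treated livers for Gm17535 and, except control replicate 4, for Gm10717.

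No target of PPARalpha was called at this dose, 0 of the 68 measured members of its 4 lists. Ehhadh, the bifunctional enzyme of peroxisomal beta-oxidation, was at 340, 307, 250 and 230 CPM in controls and at 309, 287, 331 and 226 CPM at 0.03 mg/kg, so the groups covered the same range, and the log2 fold change was 0.03 with a 95% interval of -0.35 to 0.42. The 19 peroxisomal genes had a median of 0.03 with 10 above and 9 below 0. The 24 mitochondrial and ketogenic genes had a median of 0.04, with 1 higher and 1 lower at an unadjusted p under 0.05. Their groups did not overlap for 4 on the higher side and 1 on the lower, where 1.69% and 1.72% of all genes did so.

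The 5 omega-hydroxylation genes were all below 0, with a median of -0.62 (-0.25 without control replicate 1), and the difference followed 2 of the controls. Cyp4a10 was at 26.2 and 32.5 CPM in control replicates 1 and 2 but at 7.87 and 4.67 CPM in control replicates 3 and 4, against 11, 8.36, 6.98 and 2.17 CPM in treated livers. Cyp4a14 was at 3.00, 2.67, 0.539 and 0.130 CPM against 0.444, 0.597, 1.22 and 0.217 CPM. The groups overlapped for both, and their log2 fold changes of -1.31 (SE 0.71) and -1.31 (SE 0.64) had adjusted p-values of 0.9996. Acot1, a cytosolic acyl-CoA thioesterase, gave -0.36 (SE 0.29) and was highest in control replicate 1, at 42.4 CPM. Fgf21, the fasting hormone of liver, was also highest there, at 5.49 CPM against 0.326 to 1.82 CPM in the other 7 livers.

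Fabp2, a fatty acid binding protein, had the smallest p of all genes with at least 20 CPM and no overlap. Its 4 controls were at 3042, 2472, 1817 and 1616 CPM and its treated livers at 1443, 1412, 1510 and 1207 CPM. The groups stayed apart, with control replicates 1 and 2 again the highest, and the log2 fold change was -0.68 (SE 0.18, unadjusted p = 0.00123, adjusted p = 0.9996). Fabp2 was at 1268 ± 118 CPM at 0.3, 1747 ± 205 CPM at 3 and 1205 ± 279 CPM at 6 mg/kg. Bdh1, which interconverts ketone bodies, was at 501 to 711 CPM in controls and 407 to 495 CPM in treated livers, a log2 fold change of -0.36 (SE 0.13). A weaker probe for Bdh1 gave 0.15 (SE 0.17). Fabp1, the main fatty acid binding protein of liver, gave -0.13 (SE 0.19). Cpt1a, which brings fatty acids into mitochondria, gave 0.77 (SE 0.34). It was at 1.27 to 1.75 CPM in controls and 2.19 to 3.48 CPM in treated livers, without overlap.

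Among the targets of CAR and PXR no gene was called, and several members, the cytochrome P450 gene Cyp2a4 among them, were higher in every treated liver. Cyp2b10, the standard CAR target, was at 90.6, 74.6, 28.9 and 54.9 CPM in controls and at 103, 77.9, 73.5 and 34.8 CPM at 0.03 mg/kg. Both groups spanned about the same levels, and the log2 fold change of 0.22 had a 95% interval of -0.60 to 1.03. Cyp3a11, the PXR target, gave 0.05 (-1.07 to 1.18), Cyp2c29 gave -0.08 (-0.92 to 0.75) and Cyp2c55 gave -0.40 (-1.62 to 0.83), so that the interval of Cyp3a11 holds 2-fold changes in both directions and that of Cyp2c55 a 2-fold decrease.

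Of the 48 measured members, 0 passed, 31 were above and 17 below 0, and the median was 0.11 against -0.016 over all genes. Without control replicate 3 the median was 0.029. Groups did not overlap for 7 on the higher side and 0 on the lower, where 1.69% and 1.72% of all genes did so. Por, which passes electrons to every microsomal P450, was at 17.5, 15.9, 28.7 and 25.4 CPM in controls and at 33.1, 32.5, 44.5 and 48.4 CPM in treated livers. No treated liver lay in the control range. Its log2 fold change was 0.85 (SE 0.34, adjusted p = 0.9996), and its other 2 probes gave 0.85 (SE 0.36) and 0.60 (SE 0.50).

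Gsta1, an alpha class glutathione transferase, was at 24.2, 21.5, 28.5 and 20.0 CPM in controls and at 29.2, 42.8, 72.4 and 58.3 CPM in treated livers. The lowest treated liver was barely above the highest control, and the log2 fold change of 1.10 had an SE of 0.58. Gm3776, a gene of the same class whose transcript is close to that of Gsta1, was at 36.5 to 44.3 CPM against 49.4 to 79.2 CPM, and the 2 may share reads. Aldh1a1, a retinaldehyde dehydrogenase, was at 16.1, 12.0, 10.9 and 10.9 CPM against 16.8, 19.0, 27.4 and 24.8 CPM (0.82, SE 0.26). Papss2, which makes the sulfate donor for conjugation, was at 25 to 33.9 CPM against 36.2 to 41.9 CPM (0.45, SE 0.20). Cyp2a4 and Ugt2b35 completed the 7, at 0.81 (SE 0.49) and 0.28 (SE 0.25). A weaker probe for Cyp2a4 gave 1.05 (SE 0.35). Cyp2a5, another P450 target of CAR and PXR, gave 0.69 (SE 0.25, adjusted p = 0.9996), with overlap. Weaker probes for Cyp2a5 gave 0.91 (SE 0.27) and 0.66 (SE 0.49).

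Gstm3, Nqo1 and Cyp1a2 had intervals within 2-fold. Gstm3 was at 1581 to 2036 CPM in controls and 1489 to 2045 CPM in treated livers, a log2 fold change of -0.08 with an interval of -0.42 to 0.26. Nqo1, a quinone reductase under the oxidant sensor NRF2, gave 0.01 (-0.42 to 0.44). The 28 NRF2 targets had a median of 0.05, with 18 above and 10 below 0. Groups did not overlap for 4 of them on the higher side and 0 on the lower, where 1.69% and 1.72% of all genes did so. Cyp1a2, a target of the dioxin receptor, gave 0.30 (SE 0.25).

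**Figure D2:**
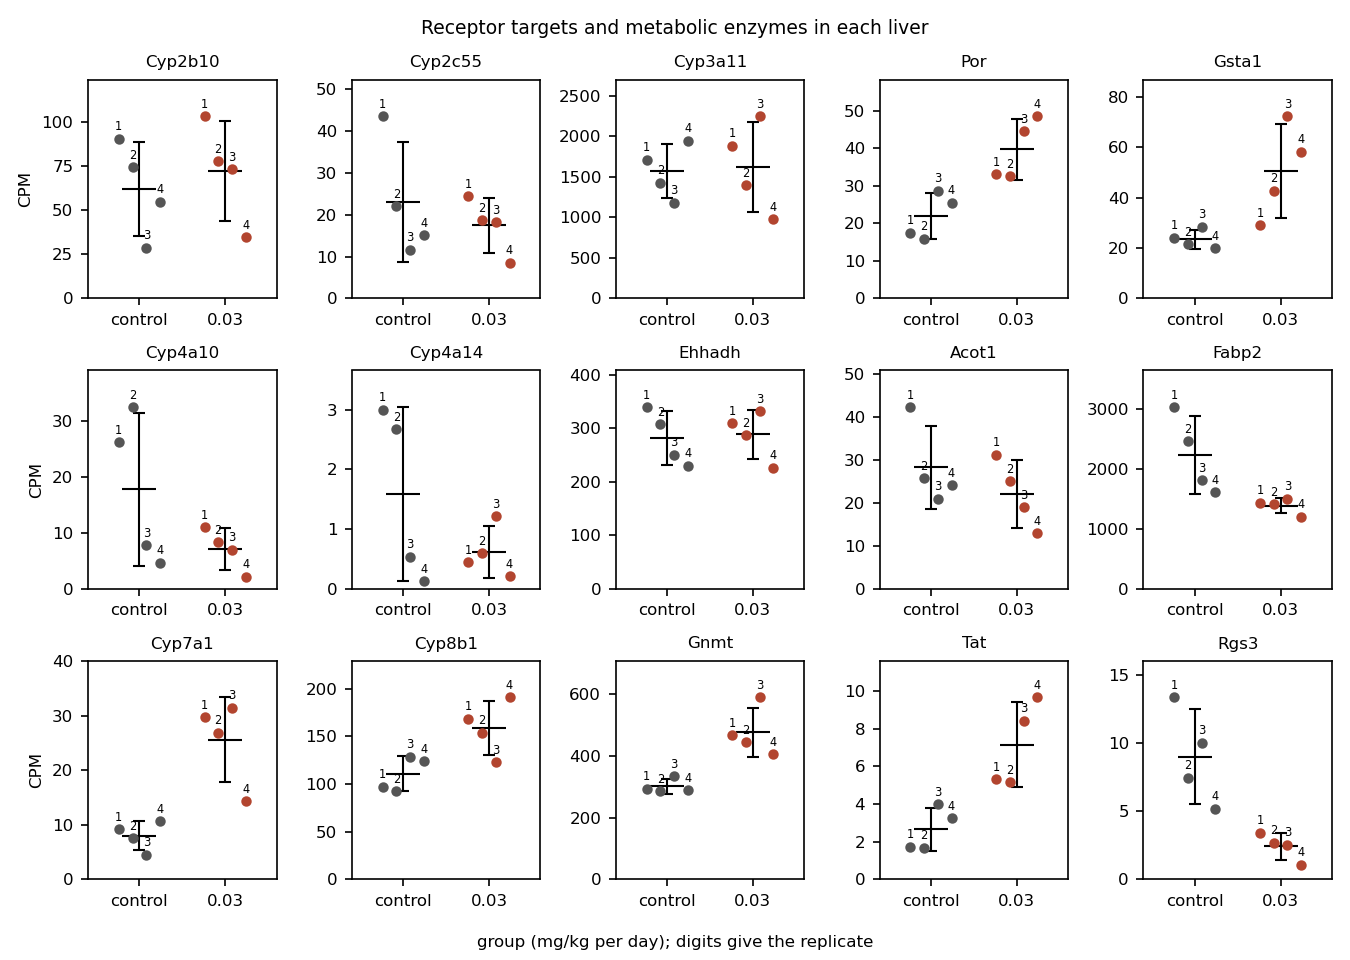
Level in CPM (vertical axis, linear, from 0) of 15 genes in each of the 4 control and 4 treated livers; points carry the replicate number, and the bar and whiskers give mean and SD. Cyp2b10, Cyp3a11 and Ehhadh cover the same range in both groups, while for Por, Gsta1, Fabp2, Cyp7a1, Gnmt, Tat and Rgs3 the groups do not overlap.

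Some genes of bile acid synthesis were higher in treated livers, though none was called. Cyp7a1, the rate-limiting enzyme, was at 9.24, 7.6, 4.53 and 10.6 CPM in controls and at 29.7, 26.9, 31.5 and 14.3 CPM at 0.03 mg/kg. The groups did not overlap, but the log2 fold change of 1.68 had a 95% interval of -0.04 to 3.40. The spread is that of all 20 libraries, and Cyp7a1 was at 99.7 ± 166 CPM (SD, n = 4) at 3 mg/kg. Cyp8b1, which sets the cholic acid share, was at 92.6 to 129 CPM against 123 to 191 CPM (0.52, SE 0.25). Nr0b2, the repressor that answers to bile acids and acts on both genes, was at 1.12, 2.53, 0.431 and 1.43 CPM against 2.88, 2.29, 3.88 and 5.21 CPM (1.40, SE 0.38), with overlap. Over the 27 measured members of bile acid synthesis and transport the median was 0.14, 20 were above 0, 2 of them at an unadjusted p under 0.05, where 1.36% of all genes were on that side, and 0 passed. Without control replicate 1 the median was 0.082.

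Cholesterol and lipid synthesis showed small shifts that no test called. Of 25 cholesterol synthesis genes 20 were above 0, with a median of 0.22 (0.12 without treated replicate 4), and Sqle, squalene epoxidase, was at 14.2 to 27.3 CPM against 19.9 to 46.9 CPM (0.66, SE 0.30). Hmgcs1, an early enzyme of the same pathway, gave -0.04 (SE 0.26). The summed level of the list was 2199 to 2721 CPM in controls and 2520 to 2778 CPM in treated livers. Of 26 genes of fatty acid and triglyceride synthesis, Gpam, the first acyltransferase of triglyceride assembly, was the 1 gene without overlap, at 28.2 to 40.2 CPM against 43.8 to 48.5 CPM (0.43, SE 0.25), where 1.69% of all genes were higher without overlap. Fasn, fatty acid synthase, gave 0.70 (SE 0.42) and Scd1, the stearoyl-CoA desaturase, 0.01 (SE 0.36).

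Amino acid catabolism and the urea cycle had 34 of 39 genes above 0, but the shift was small, with a median of 0.12. Tat, tyrosine aminotransferase, was at 1.75, 1.69, 3.99 and 3.25 CPM in controls and at 5.33, 5.17, 8.42 and 9.67 CPM in treated livers. The groups did not overlap, and the log2 fold change was 1.40 (SE 0.34, unadjusted p = 0.000455, adjusted p = 0.9996). Ass1, argininosuccinate synthase, was at 726 to 1408 CPM against 889 to 2050 CPM (0.48, SE 0.30). The sum of the list was 20947 to 24378 CPM in controls and 23167 to 25719 CPM in treated livers, with overlap.

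Sex-specific and growth hormone dependent genes were not called. Hsd3b5, which reduces steroids in livers of males, gave 0.13 (SE 0.39), Cyp2d9 gave 0.26 (SE 0.18) and Elovl3, a fatty acid elongase, -0.11 (SE 0.34). Bcl6, a repressor of female-type genes, was at 19.8, 13.5, 58.2 and 169 CPM in controls but between 124 and 144 CPM in all 4 treated livers (1.04, SE 0.55). Sult2a1, a sulfotransferase of the female liver, was at 74.0, 33.4, 10.4 and 6.88 CPM against 3.00, 13.5, 22.4 and 8.69 CPM (-1.39, SE 0.62). Control replicates 1 and 2 had the lowest Bcl6 and the highest Sult2a1. The spread of Bcl6 lay among the controls, while Sult2a1 varied widely in both groups. Leaving out 1 liver moved Bcl6 to 0.70 (without control replicate 2) or 2.13 (without control replicate 4), and Sult2a1 to -0.49 without control replicate 1.

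**Figure D3:**
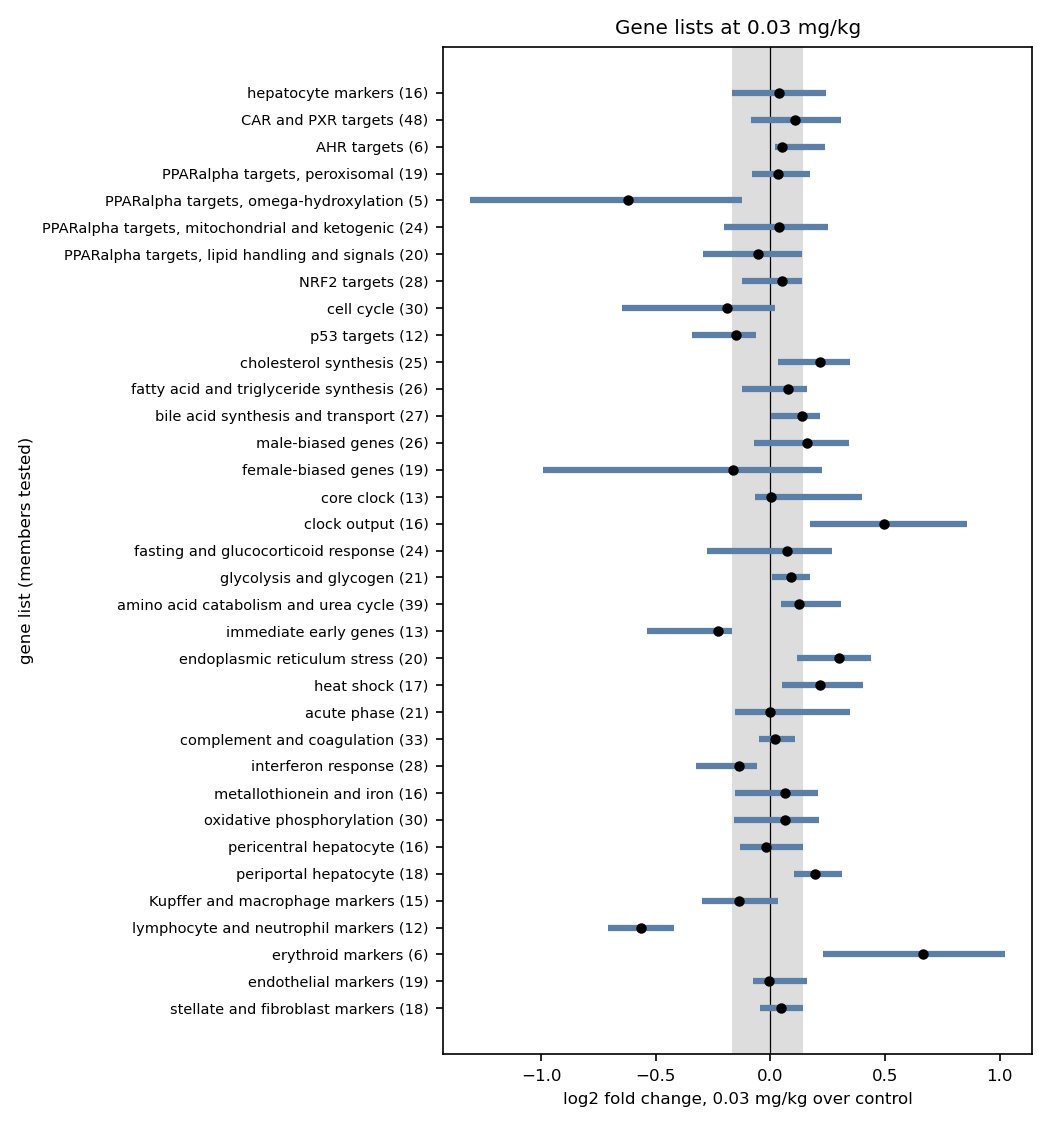
Log2 fold change at 0.03 mg/kg over control for 35 gene lists with at least 5 measured members; the point is the median of the members, the bar their 25th to 75th percentile, the number in brackets how many were tested, and the grey band the same percentiles over all genes (-0.16 to 0.14). The medians farthest above the band are those of erythroid markers and clock output, and the farthest below are those of omega-hydroxylation and of lymphocyte and neutrophil markers.

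Genes that follow the time of day varied widely within the treated group. Dbp, a transcription factor at the output of the clock, was at 12.8 and 31.8 CPM in treated replicates 1 and 2 and at 118 and 137 CPM in replicates 3 and 4, while controls were at 18.6, 37.9, 63.2 and 22.6 CPM. Per3, a clock repressor, was at 0.666, 1.49, 5.54 and 6.41 CPM in treated livers and at 0.749 to 1.73 CPM in controls. Arntl, the clock activator that peaks opposite to Dbp, ran the other way, at 11, 9.45, 5.87 and 3.37 CPM against 7.49, 7.88, 7.66 and 11.2 CPM. Bhlhe41 followed Dbp, at 1.22, 2.69, 7.87 and 14.6 CPM, and Clock followed Arntl, at 64.2, 53.8, 44.8 and 33.4 CPM. For each of these 5 genes treated replicates 3 and 4 both lay to one side of replicates 1 and 2. Clock fell in steps of like size over the 4 treated livers, and Bhlhe41 also differed widely between replicates 3 and 4. Other clock genes did not show the split: Nr1d1, a clock repressor, was at 20.0, 23.9, 23.6 and 41.6 CPM in treated livers, and Cry2, another, at 11.5, 12.1, 11.3 and 15 CPM.

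The group comparison of these genes has to be read with that spread. Dbp gave 1.07 (SE 0.63), Per3 1.53 (SE 0.51) and Arntl -0.20 (SE 0.29), all with adjusted p-values of 0.9996. Of 16 clock output genes 15 were above 0, with a median of 0.49 (0.74 without control replicate 3). On the higher side 4 had an unadjusted p under 0.05 in edgeR's test, where 1.36% of all genes did so. Groups did not overlap for 3 on the higher side and 0 on the lower, where 1.69% and 1.72% of all genes did so. Upp2, uridine phosphorylase, was the member with no overlap at a high level, at 401 to 523 CPM in controls and 564, 583, 1018 and 622 CPM in treated livers (0.57, SE 0.21). Cyp7a1 and Por, described above, belong to the same list, so the same genes are counted in several lists. The hour at which each liver was taken is not given in the sources used here, and its part in these values was not tested.

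The same 2 treated livers were highest for chaperones of the endoplasmic reticulum. Creld2, a secreted stress protein, was at 45.9, 50.1, 205 and 201 CPM in treated livers and at 58.0, 55.7, 65.3 and 50.1 CPM in controls. Hspa5, the main chaperone of the compartment, was at 654, 595, 1085 and 1393 CPM against 598, 681, 802 and 719 CPM, and Manf at 238, 199, 400 and 446 CPM against 235 to 279 CPM. In each case replicates 1 and 2 lay in or under the control range. Fold changes were 1.13 (SE 0.38), 0.41 (SE 0.22) and 0.33 (SE 0.29), and 17 of 20 members were above 0 with a median of 0.30 and 0 passing. Without treated replicate 4 the median was 0.045.

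Promoters of these genes are shown because members of the list were high in the same treated livers. The endoplasmic reticulum stress element, searched on both strands as CCAAT, 9 bases of any kind and CCACG in the window from 250 bases before to 50 bases after each start, was found in 6 of 18 members with a promoter sequence (33.3%), and in 17 of 7848 tested genes with one (0.217%). None of these matches overlapped one of the other 2 motifs searched in the list, the E-box CACGTG and the D-box TTATGTAA. Members of the list were chosen as genes of endoplasmic reticulum stress. The share with the element thus comes with the choice of list and is no result of these livers. The sequences are from RefSeq on GRCm38.p6, read 5′ to 3′ on the strand of the gene, with the ends of the element in capitals: Creld2 chr15:88819505-88819604 (plus strand), Hspa5 chr2:34771990-34772089 (plus strand), Dnajc3 chr14:118937812-118937911 (plus strand), Hsp90b1 chr10:86705518-86705671 (minus strand) and Pdia6 chr12:17266476-17266575 (plus strand).
Creld2: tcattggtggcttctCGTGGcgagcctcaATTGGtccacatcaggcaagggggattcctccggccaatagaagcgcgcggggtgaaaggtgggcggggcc
Hspa5: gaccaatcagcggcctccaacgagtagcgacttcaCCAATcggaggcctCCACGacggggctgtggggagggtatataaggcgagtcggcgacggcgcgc
Dnajc3: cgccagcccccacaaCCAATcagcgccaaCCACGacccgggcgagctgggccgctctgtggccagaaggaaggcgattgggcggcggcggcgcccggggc
Hsp90b1: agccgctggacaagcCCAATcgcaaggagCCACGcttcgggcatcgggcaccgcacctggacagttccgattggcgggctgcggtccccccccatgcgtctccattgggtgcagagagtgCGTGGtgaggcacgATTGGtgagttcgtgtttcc
Pdia6: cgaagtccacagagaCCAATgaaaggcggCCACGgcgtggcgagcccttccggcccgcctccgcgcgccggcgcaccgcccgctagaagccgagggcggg

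The 6 members with the element differed in their levels. Dnajc3, which holds it, was at 13.4, 15.7, 19.4 and 27.6 CPM in treated livers, and Hsp90b1, with 2 matches, at 277, 254, 344 and 379 CPM, both highest in replicates 3 and 4. Pdia6, a disulfide isomerase with the element, was at 362, 264, 266 and 186 CPM, lowest in replicate 4. Calr, a calcium-binding chaperone and the sixth with the element, was at 450.5, 393, 359.6 and 540.2 CPM, lowest in replicate 3 and highest in replicate 4. Hyou1, at 11.1, 8.75, 20.5 and 32.6 CPM, and Manf are the 2 members without a promoter sequence here.

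In the core clock list, the D-box, bound by Dbp and searched as TTATGTAA on both strands, was found in 1 of 11 promoters, that of Per3, and in 61 of 7848 tested genes (0.777%). In the clock output list it was found in 0 of 13. The E-box was found in 2 of 11 core clock and 3 of 13 clock output promoters, and in 943 of 7848 tested genes (12.0%). Whether Dbp acts on Per3 in these livers was not tested. The Per3 sequence, chr4:151044786-151044885 (minus strand) on GRCm38.p6, holds 2 matches, in capitals.
Per3: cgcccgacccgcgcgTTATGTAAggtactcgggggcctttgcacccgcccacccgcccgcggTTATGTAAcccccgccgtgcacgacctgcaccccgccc

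**Figure D4:**
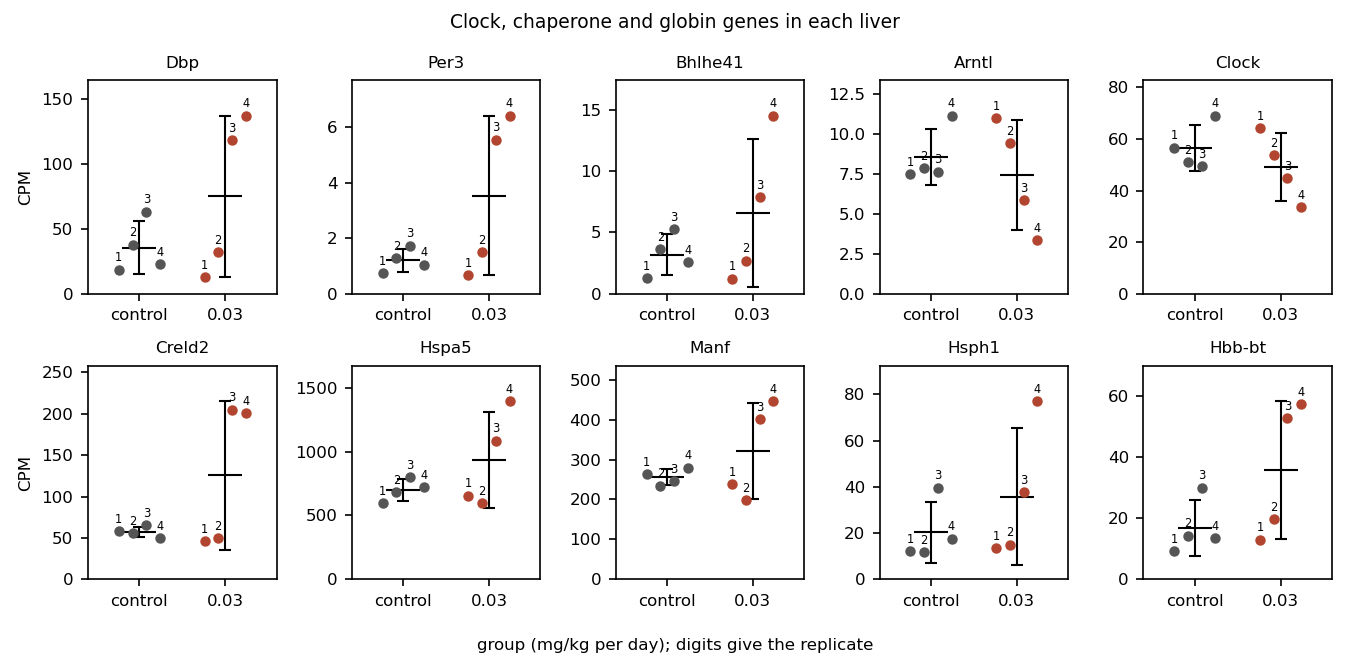
Level in CPM (vertical axis, linear, from 0) of 10 clock, chaperone and globin genes in each of the 4 control and 4 treated livers; points carry the replicate number, and the bar and whiskers give mean and SD. Treated replicates 3 and 4 lie above replicates 1 and 2 for Dbp, Per3, Creld2, Hspa5, Manf, Hsph1 and Hbb-bt, and below them for Arntl and Clock.

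Some heat shock genes and the globins shared the split. Hsph1, a heat shock chaperone, was at 13.5, 15, 37.7 and 77.0 CPM in treated livers and at 12.4, 11.7, 39.7 and 17.7 CPM in controls, so that control replicate 3 was high as well. Hspa8 was at 217, 207, 443 and 758 CPM against 285, 259, 468 and 281 CPM, and without treated replicate 4 its log2 fold change went from 0.33 to -0.16. Hspb1, a small heat shock protein, did not share it, at 1.89, 0.895, 1.55 and 1.19 CPM in treated livers. The median of the 17 heat shock genes, 0.22, was -0.024 without that liver. Hba-a2, an alpha globin, was at 11.5, 18.6, 40.6 and 34.9 CPM against 10.1, 8.44, 18 and 10.5 CPM (1.16, SE 0.30), and Hbb-bt, a beta globin, at 13, 19.7, 52.6 and 57.3 CPM against 9.24, 14.4, 30.0 and 13.5 CPM. Of 16 erythroid markers, the 13 that had a probe summed to 103 to 136 CPM in controls and 107 to 203 CPM in treated livers. Only 6 passed the count filter and were tested. The part of red cell genes in the other differences was not tested.

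Immediate early genes had lower estimates in treated livers, and none was called. All 13 measured members were below 0, with a median of -0.23 (-0.42 without treated replicate 2), 5 at an unadjusted p under 0.05 where 1.9% of all genes were on that side, and 0 passed. Groups did not overlap for 2 of the 13, where 1.72% of all genes were lower without overlap. Dusp1, a phosphatase that ends MAP kinase signals, was at 19.6, 14.1, 10.9 and 11.2 CPM in controls and at 8.99, 8.06, 6.87 and 10.5 CPM in treated livers, and Ier2 at 48.2 to 59.0 CPM against 31.3 to 42.6 CPM. These were the 2 without overlap, and the log2 fold changes were -0.69 (SE 0.20) and -0.44 (SE 0.17). Jun gave -0.54 (SE 0.22), with overlap, and a weaker probe for Jun gave -0.02 (SE 0.45). Gadd45g, a stress gene, was at 18.3, 4.22, 24.8 and 4.02 CPM against 2.77, 4.78, 3.32 and 0.760 CPM, so that its -2.14 (SE 0.68) rests on control replicates 1 and 3. All 22 list members, those under the count filter included, summed to 175 to 211 CPM in controls and 124 to 153 CPM in treated livers, without overlap. Only 13 of the 22 passed the count filter and were tested.

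Cell division genes were scarce in both groups. Of 30 measured, 22 were below 0 with a median of -0.19 (-0.063 without treated replicate 4), and 0 passed. Bub1, a spindle checkpoint kinase, had 3 to 15 counts in controls and 1 to 3 in treated livers (-2.03, SE 0.56), at the floor of 3 counts. Top2a, a topoisomerase of dividing cells, gave -0.15 (SE 0.44), and its weaker probe, at a mean of 0.697 CPM, -1.53 (SE 0.50, adjusted p = 0.9996). Cdkn1a, the p53 target, had 0 to 6 counts in every liver.

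Markers of blood leukocytes had lower estimates in treated livers, with no gene called and uneven controls. All 12 measured members of 28 lymphocyte and neutrophil markers were below 0, with a median of -0.57, 2 at an unadjusted p under 0.05, where 1.9% of all genes were on that side, and 0 passing. The median was -0.23 without control replicate 1. The summed level takes all 28 markers, those under the count filter included. It was 66.1, 50.9, 33.9 and 32.2 CPM in controls and 31.3, 35.4, 39.1 and 24.8 CPM in treated livers, so that only control replicates 1 and 2 stood above the treated range. Igkc, the kappa light chain, was at 18.2, 10.3, 5.71 and 6.23 CPM against 4.55 to 7.46 CPM, and Nkg7, a gene of cytotoxic lymphocytes, at 2.37, 3.24, 1.29 and 0.649 CPM against 0.497 to 1.22 CPM.

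C1qb, a complement subunit made by macrophages, was at 73.5, 63.6, 48.4 and 44.5 CPM in controls and at 34.1 to 44.1 CPM in treated livers (-0.55, SE 0.21). A weaker probe for C1qb, at a mean of 22.7 CPM, gave -0.07 (SE 0.16). The 15 Kupffer and macrophage markers took no common direction, with 5 above and 10 below 0, a median of -0.14 (-0.077 without control replicate 1) and 0 passing. C1qa, another complement subunit, gave 0.12 (SE 0.23), and Clec4f, a lectin of Kupffer cells, 0.24 (SE 0.47). Interferon response genes had a median of -0.14 in 28, of which 22 were below 0, and -0.023 without control replicate 1. Gbp3, an interferon-induced GTPase, was at 20.3, 21.5, 12.3 and 10.1 CPM against 7.6 to 11.8 CPM. For Gbp3, as for the leukocyte markers, control replicates 1 and 2 were the high samples. The part of these cells in the other differences was not tested. Hepatocyte, endothelial and stellate cell markers had medians of 0.04, -0.0074 and 0.04.

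Acute phase genes were scattered. Saa1, a serum amyloid, was at 65.6, 240, 122 and 94.8 CPM in controls and at 108, 114, 210 and 540 CPM in treated livers, and Saa2 at 20.3 to 73.5 CPM against 22.2 to 137 CPM. In each group 1 liver was the highest, control replicate 2 and treated replicate 4. Lcn2, lipocalin, was highest in control replicate 2, at 50.0 CPM against 12.9 to 34.3 CPM elsewhere. The 21 acute phase genes had a median of -0.00054, with 10 above and 11 below 0.

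Across all genes, groups did not overlap for 345 (3.42%), 171 higher (1.69%) and 174 lower (1.72%), and with libraries scaled by total counts alone the split was 220 higher and 114 lower. At 20 CPM and over, 134 of 3695 genes did not overlap (3.63%), 58 higher (1.57%) and 76 lower (2.06%). Those with the smallest p on the higher side, beside Upp2, Por, Papss2 and Gnmt, were Naprt, which makes a precursor of NAD (17.4 to 27.9 CPM against 29.0 to 31.3 CPM), Ap1b1, an adaptor subunit of clathrin coats (18.1 to 25.4 CPM against 29.1 to 33.7 CPM), Aplp2, a relative of the amyloid precursor protein (101 to 118 CPM against 118 to 141 CPM), and Cpsf3, the endonuclease of polyadenylation (30.3 to 38.7 CPM against 40.2 to 46.8 CPM). On the lower side, beside Fabp2, Bdh1, C1qb and Ier2, they were Stap1 (19.0 to 29.5 CPM against 13.9 to 18.8 CPM), H2-Bl, a class I histocompatibility gene (302 to 328 CPM against 245 to 285 CPM), Rtca, the RNA cyclase (49.1 to 56.4 CPM against 36.5 to 48.2 CPM), and Bmt2 (64.9 to 73.0 CPM against 49.4 to 62.4 CPM). Their log2 fold changes ran from 0.28 to 0.48 on the higher side and from -0.57 to -0.27 on the lower, each with an adjusted p of 0.9996.

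Where a gene had more than 1 measured probe, the other probes gave another reading of the same RNA. Of 45 further probes for genes higher at an unadjusted p under 0.05, 36 were above 0 (80%), and of 58 for genes lower, 46 were below 0 (79.3%). Over all genes 60.5% of further probes shared the sign of the main probe. A shared sign in the same 8 RNA samples concerns the probe and is no independent replicate of the dose.

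The mean at 0.03 mg/kg was also compared directly with the mean at each higher dose. The control mean is not used there, but the control libraries stay in the fit over all 20 libraries. Between 0.3 and 0.03 mg/kg 0 of 14122 probes were called by edgeR (0%), 331 had an unadjusted p under 0.05, and DESeq2 called 1. Between 3 and 0.03 mg/kg 250 were called (1.77%), 182 higher (1.29%) and 68 lower (0.482%) at 3 mg/kg. Between 6 and 0.03 mg/kg 1902 were called (13.5%), 1140 higher (8.07%) and 762 lower (5.4%). Wells of row A on the plate held the control and 0.03 mg/kg RNA, and wells of row B that of the 2 highest doses, so that row and dose cannot be told apart there. Control and 0.03 mg/kg lay in different columns, so column and dose cannot be told apart between them either.

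Genes that answer to the higher doses were not called at the lowest. Gadd45b, a stress gene, was at 2.13 ± 0.885 CPM (SD, n = 4) at 0.03 and 127 ± 42.0 CPM at 6 mg/kg, a log2 fold change of 5.88 (SE 0.38), and at 2.54 ± 1.24 CPM in controls. Cyp4a14 was at 0.619 ± 0.429 CPM at 0.03, 5.0 ± 1.54 CPM at 3 and 114 ± 34.0 CPM at 6 mg/kg. Gsta1 went from 50.7 ± 18.7 CPM at 0.03 to 1606 ± 173 CPM at 6 mg/kg, a log2 fold change of 4.99 (SE 0.66), with 40.2 ± 14.5 CPM at 0.3 mg/kg, under the mean at 0.03. Por was at 39.6 ± 8.07, 50.5 ± 4.09, 86.6 ± 29.3 and 206 ± 111 CPM at the 4 doses in turn.

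**Figure D5:**
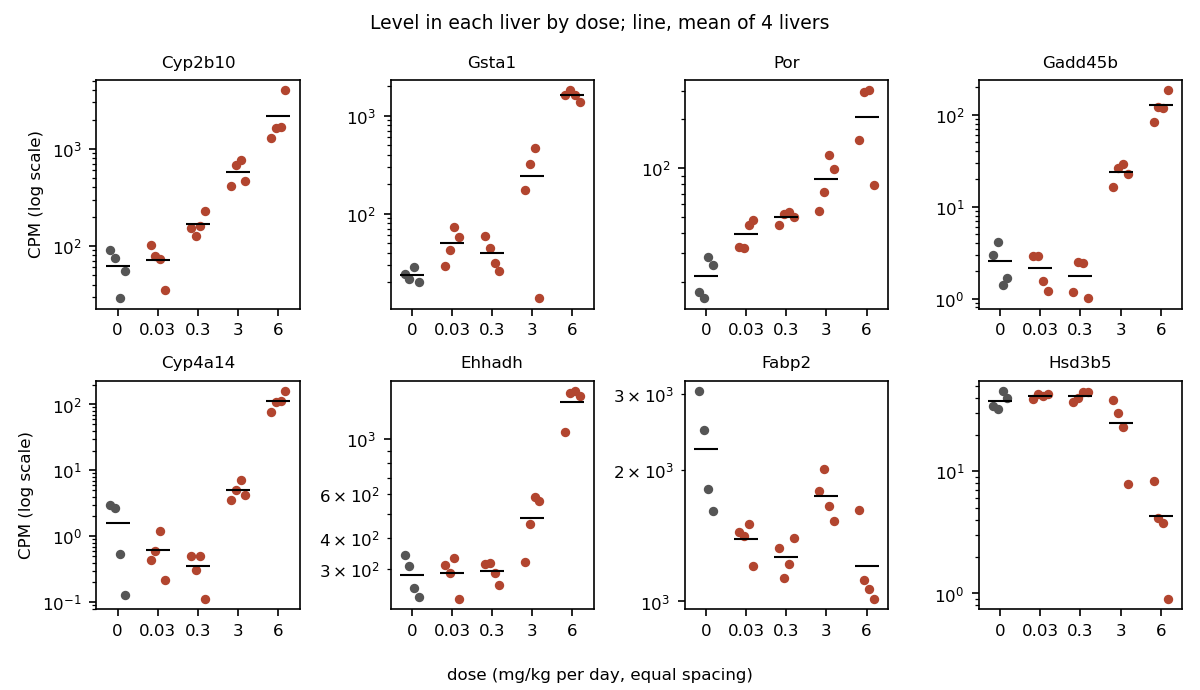
Level in CPM (vertical axis, log scale) of 8 genes in each liver at 0, 0.03, 0.3, 3 and 6 mg/kg per day (horizontal axis, equal spacing), with a line at the mean of the 4 livers. Cyp2b10, Gadd45b, Cyp4a14 and Ehhadh overlap between 0 and 0.03 mg/kg and are higher at 6 mg/kg, Hsd3b5 is lower at 6 mg/kg, and Fabp2 has its highest mean in controls.

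Rgs3 and Tat at 0.03 mg/kg differed from a higher dose by the edgeR test, in comparisons that do not use the control mean. Both had been picked by their values at 0.03 mg/kg against control. The same livers at 0.03 mg/kg enter here, so these differences are no independent evidence. Rgs3 was at 2.44 ± 0.984 CPM at 0.03 and 5.59 ± 1.32 CPM at 6 mg/kg, higher by 1.19 on the log2 scale (SE 0.36, edgeR adjusted p = 0.0296), with 9.01 ± 3.51 CPM in controls. Tat was at 7.15 ± 2.25 CPM at 0.03 and 2.17 ± 0.867 CPM at 3 mg/kg, a change of -1.74 on the log2 scale (SE 0.35, edgeR adjusted p = 0.00851), with 2.67 ± 1.14 CPM in controls and 6.21 ± 1.01 CPM at 6 mg/kg. The level of Tat thus had no single direction over the doses.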

How the data were processed

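The 8 livers were measured by TempO-Seq. Values were deposited as unnormalized counts for each of 30146 probes of 21450 symbols. Reads were matched with Bowtie on build GRCm38.p5, per the submitters' processing notes, and the version of Bowtie is not given in the sources used here.

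Probes kept by filterByExpr (14122 probes, 99.8% of counts) were scaled by TMM and fitted with edgeR 4.0.16 (R 4.3.3) by a robust quasi-likelihood model over all 20 libraries, with 1 mean for each dose group and Benjamini-Hochberg adjustment over all probes at 0.05. Each gene was represented by its most abundant probe, by mean count. CPM values use the scaled library sizes, and 3 counts were taken as the floor. The SE is the absolute log2 fold change over the square root of F, and intervals are 95%. Adjusted p-values in the text are edgeR's unless DESeq2 1.42.0 is named.

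Replicates are separate mice, numbered in accession order, and no 2 libraries of a group were copies. Members and gene lists were chosen with earlier results of these data known. The rule for named genes took a set of sentinels of liver toxicology, those with the smallest p among genes without overlap at 20 CPM or more, up to 2 per list and direction, those that vary most within groups, those that differ most between 6 and 0.03 mg/kg, and any gene called under an alternative, 178 genes in all, of which the text names a part. Of the genes named, 10 were chosen after their values were seen: Gm17535, Ugt2b35, Bhlhe41, Manf, Hspa8, Dnajc3, Hsp90b1, Hbb-bt, Jun and Calr. Lists are described by counts and medians without a test. A list member is called measured when a probe of it was kept by the filter. Summed levels of lists take every member that had a probe, also those under the filter. Coordinates of genes are from GENCODE M21 on GRCm38. The functions were tested on simulated counts. Alternatives were other scalings, filters and tools, the 8 libraries alone, probes summed per symbol, and leaving out libraries.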

Additional observations from a re-analysis of the deposited data

Results flagged for a closer look

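In a group of 4 livers, a value was singled out when its gap to the nearest other liver exceeded, as a share of the range of the group, the 95% critical value of Dixon's test for 4 values. Of the 200 sets of 4 values examined, 10 were singled out, and chance alone gives about 1 in 20.

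Control replicate 2 was singled out for the number of probes with a count, 23418 against 19110 to 19721 in the other controls, for olfactory and vomeronasal receptors, 1159 CPM against 46 to 89.4 CPM, and for Gm10720, 87.1 CPM against 0.649 to 3.24 CPM. Control replicate 3 was the highest control for Gnmt, 335 CPM against 287 to 294 CPM, and for Hspa8, 468 CPM against 259 to 285 CPM. Arntl was at 11.2 CPM in control replicate 4 against 7.49 to 7.88 CPM. Among treated livers, replicate 3 held 1018 CPM of Upp2 against 564 to 622 CPM, and without it Upp2 was still higher in 3 of 3 treated livers than in every control. It also held 9.09 CPM of Clec4f against 5.77 to 6.21 CPM. Treated replicate 2 had the largest library, 9945290 counts, and the lowest Bub1, 0.0995 CPM, which is 1 count.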

How the results depend on the processing

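Between 0.03 mg/kg and control, 0 probes were called under every alternative run except 2: DESeq2 called 2 (Rgs3 and Gm10720) and the fit without replicate 4 at 3 mg/kg and replicate 4 at 6 mg/kg called 1 (Gnmt). Leaving out each liver in turn gave 0 as well. Probes with an unadjusted p under 0.05 numbered 457 of 14122, and 1794 of 28548 with no filter on low counts (335 higher, 1459 lower). They numbered 716 of 12937 in the 8 libraries alone, 1108 of 14271 without those 2 libraries and 779 of 14459 without control replicate 3. Genes whose interval lay within 2-fold numbered 6699 to 8948. Genes without overlap numbered 345, and 524 to 1016 with each liver left out, where 3 against 4 overlap less often by construction. Between 0.3 and 0.03 mg/kg, DESeq2 called 1 and the leave-one-out fits 0 to 1, the 1 without replicate 2 at 0.3 mg/kg. Between 3 and 0.03 mg/kg, DESeq2 called 394, the 8 libraries alone 55, the fit without those 2 libraries 566 and the leave-one-out fits 145 to 289. Between 6 and 0.03 mg/kg they called 2985 without those 2 libraries and 1342 to 1997 with each library left out. The cause was not tested. Of the genes named, none of them called, 19 changed sign with 1 liver left out, over these ranges of log2 fold change: Alas1 -0.51 to 0.89, Arntl -0.45 to 0.039, Calr -0.12 to 0.085, Cyp2b10 -0.025 to 0.46, Cyp2c29 -0.18 to 0.056, Cyp2c55 -0.63 to 0.11, Cyp3a11 -0.14 to 0.23, Ehhadh -0.051 to 0.14, Elovl3 -0.25 to 0.074, Fabp1 -0.26 to 0.049, Gadd45b -0.45 to 0.083, Hmgcs1 -0.13 to 0.066, Hspa8 -0.16 to 0.56, Hspb1 -0.65 to 0.037, Lcn2 -0.35 to 0.41, Nqo1 -0.10 to 0.081, Pdk4 -0.22 to 0.66, Saa2 -0.16 to 1.17 and Scd1 -0.15 to 0.26. Calr, at 0.0023, was -0.0051 with DESeq2 size factors, -0.00060 with a filter of 20 counts in 4 libraries, -0.0052 by DESeq2 and -0.0082 by limma-voom. Under limma-voom the sign also changed for Lcn2 0.027, Nqo1 -0.0016, Pdk4 -0.052 and Scd1 -0.085. Replicates have no numbers in the labels, so no paired analysis was possible because nothing ties a treated mouse to a control. Depth limits the genes under 1 CPM, of which 6.63% had an interval within 2-fold, against 91.3% at 100 CPM and over.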

Other observations

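Genes of the fasting and glucocorticoid response took no common direction at 0.03 mg/kg. Of 24 measured, 14 were above and 10 below 0, with a median of 0.07. Pck1, the gluconeogenic enzyme, was at 69.4, 83.6, 217 and 116 CPM in controls and at 96.6, 142, 204 and 238 CPM in treated livers (0.49, SE 0.38). Igfbp1, an insulin-repressed binding protein, was at 8.99, 5.35, 1.94 and 4.41 CPM against 3.00, 3.68, 3.77 and 2.06 CPM (-0.71, SE 0.49), and Pdk4, which spares glucose, gave 0.25 (SE 0.54). In controls the liver with the most Pck1, replicate 3, held the least Igfbp1. Mt1, a metallothionein that answers to zinc and glucocorticoids, was at 0.999 to 2.44 CPM in the 8 livers.

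Glycolysis and glycogen genes were among the best bounded, with 19 of 21 intervals within 2-fold, a median of 0.09 and a range of -0.11 to 0.28. Oxidative phosphorylation genes had 25 of 30 within 2-fold and a median of 0.06. Genes of hepatocytes around the portal vein had a median of 0.19, with 16 of 18 above 0, and those around the central vein -0.018, with 6 of 16 above 0. No member of these lists was called. The clock gene Nr1d1 was at 10.6 to 31.2 CPM in controls and 20.0 to 41.6 CPM in treated livers (0.40, SE 0.41), and Alas1, the first enzyme of heme synthesis, at 20.2, 11.8, 57.5 and 13.4 CPM against 12.2, 11.1, 31.4 and 58.3 CPM (0.13, SE 0.74).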
